A study of Mus musculus with 6 samples.

Results

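The genes described here encode the protein subunits of the mitochondrial respiratory chain and of ATP synthase that are made from nuclear genes, together with cytochrome c (Cycs) and the nicotinamide nucleotide transhydrogenase (Nnt). With earlier results of these data known, they were chosen by name: every probe set with a single gene symbol starting with Ndufa, Ndufb, Ndufc, Ndufs, Ndufv, Uqcr, Cox4, Cox5, Cox6, Cox7, Cox8 or Atp5, or equal to Sdha, Sdhb, Sdhc, Sdhd, Nnt or Cycs. This gave 100 of the 12488 probe sets on the array, for 73 genes. The rule also took in 2 complex I assembly factors, Ndufaf1 and Ndufaf4, with 4 probe sets. A further 10 probe sets that carry such a symbol beside another gene's were left out. A filter on low signal kept 73 probe sets for 64 genes.

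Whole-lung RNA of 3 kinds of mice, labelled ICR, DBA and C57, was hybridised to 6 Affymetrix arrays, 1 smoked and 1 control array for each. Smoked mice breathed the smoke of 3 cigarettes a day on 5 days a week for 4 weeks, while the labels call the control lungs normal and describe the same housing for all mice. The title of the series names resistance or sensitivity of the lung to cigarette smoke, and no label says which strain is which. ICR is an outbred stock, while DBA and C57 are names of inbred families, and the sources used here do not give substrain, age, sex or any pooling of animals. No group had replicates, so the 3 strains served as the pairs for the smoke comparison, and the 2 arrays of a strain, 1 of each exposure, as its replicates between strains. P-values measure only the spread between these arrays. When the smoke difference of 1 strain is set against the other strains, its own pair adds nothing to this spread.

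The arrays differed in quality. Median deposited intensity was 25.9 on the ICR smoked array, against 52.2 to 84.8 on the 5 others. That array also had the highest ratios of 3' to 5' control signal, 4.75 for beta-actin and 2.39 for Gapdh. The surfactant gene Sftpc and the club cell gene Scgb1a1 had deposited intensities of at least 7184 and 7572 on every array, as lung tissue should. Sftpd, another surfactant gene, did not pass the filter.

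The respiratory chain passes electrons from NADH (complex I) and succinate (complex II) through complex III and cytochrome c to complex IV, cytochrome c oxidase, which reduces oxygen. Complexes I, III and IV pump protons out of the matrix, and ATP synthase (complex V) uses their return to make ATP. Nnt, in the same inner membrane, uses the proton gradient to make NADPH, which feeds the removal of mitochondrial peroxide. The C57BL/6J substrain of C57 mice is known for a deletion within Nnt, and the labels do not name the substrain used here.

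The proximal promoters of some of these genes hold binding motifs of NRF1, GABPA or YY1, factors known for driving nuclear genes of mitochondrial proteins. Promoter windows from RefSeq (build GRCm38.p6), from 250 bases before to 50 after the start, were found for 59 of the 73 genes, in 64 windows. The core GCGCATGC, the NRF1 motif, was present on either strand in 11 member windows, or 17.2%, against 2.71% of all 32851 windows. CCGGAAGT, the motif of GABPA and other ETS factors, was in 4 (6.25%, against 3.89% of all), and AAGATGGC, the YY1 motif, in 8 (12.5%, against 2.75% of all). None of the 3 motifs is contained in another, and a match is only a match of letters. The windows come from a single reference build and cannot show differences between the strains. The 3 windows below are shown for the results that follow: Ndufa7, the member called lower in DBA, which holds none of the 3 motifs; Cycs, whose ICR control array stood apart and which holds the NRF1 core; and Uqcr11, which holds both the NRF1 core and the GABPA motif. The capitals mark those matches, on either strand. Ndufa7 has 2 windows in the table and the first is shown. There was no entry for Atp5a1, Atp5mpl, Cox4i1, Cox6a2, Cox6c, Cox8c, Ndufa2, Ndufb9, Ndufs1, Nnt, Sdhc, Uqcrb, Uqcrc2 or Uqcrq.
Ndufa7, chr17:33824322-33824621, plus strand: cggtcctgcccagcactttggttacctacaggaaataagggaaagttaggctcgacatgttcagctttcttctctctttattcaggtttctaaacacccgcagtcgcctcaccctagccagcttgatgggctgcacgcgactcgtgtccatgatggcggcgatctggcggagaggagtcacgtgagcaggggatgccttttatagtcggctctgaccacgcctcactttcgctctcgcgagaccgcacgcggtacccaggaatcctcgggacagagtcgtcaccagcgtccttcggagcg
Cycs, chr6:50566520-50566819, minus strand: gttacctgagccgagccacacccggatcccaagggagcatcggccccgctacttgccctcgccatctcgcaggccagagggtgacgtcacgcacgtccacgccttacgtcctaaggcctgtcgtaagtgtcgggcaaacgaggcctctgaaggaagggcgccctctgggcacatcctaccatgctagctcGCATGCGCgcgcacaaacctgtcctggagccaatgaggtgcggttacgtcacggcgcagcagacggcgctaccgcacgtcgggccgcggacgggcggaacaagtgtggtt
Uqcr11, chr10:80406772-80407071, minus strand: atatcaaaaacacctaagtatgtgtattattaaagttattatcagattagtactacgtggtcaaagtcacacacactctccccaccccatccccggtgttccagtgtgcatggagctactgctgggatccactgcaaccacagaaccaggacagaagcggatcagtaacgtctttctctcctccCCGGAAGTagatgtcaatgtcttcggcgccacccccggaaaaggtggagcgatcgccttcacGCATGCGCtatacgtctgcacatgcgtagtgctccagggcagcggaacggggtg

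Values below are either deposited intensities or normalized log2 intensities, and differences are on the normalized log2 scale. A probe set counted as called, and as having moved up or down, when limma gave an adjusted p below 0.05 over all 7453 probe sets kept (2-sided, Benjamini-Hochberg). Levels of different probe sets were not set against each other. In whole lung, fewer cells of a type and less RNA per cell cannot be told apart.

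Nnt, on chromosome 13, had the largest strain difference of any member kept, in ICR against C57. Its deposited intensity was 132.5 and 263 on the ICR smoked and control arrays, 242.2 and 202.1 on the DBA smoked and control arrays, and 76.9 and 90.1 on the C57 smoked and control arrays. After normalization the log2 values were 8.20 and 8.18 in ICR, 7.45 and 7.49 in DBA, and 6.28 and 6.47 in C57, in the same order of exposure. On that scale no array of ICR or DBA overlapped the C57 arrays, and both ICR arrays lay above both DBA arrays; before normalization the ICR smoked array lay below the DBA arrays.

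In ICR the normalized level of Nnt averaged 8.19 ± 0.01, against 6.38 ± 0.13 in C57 (SD, n = 2 each). It rose 3.53-fold (log2 1.82, SE 0.24, 95% interval 1.28 to 2.35, limma adjusted p = 0.00639). That call was the only one among the 73 members in ICR against C57, or 1.37%, where 2.29% of all probe sets were called. Of the 14 alternatives, some left out a DBA array, which does not enter this difference and left it at 1.82. The call held in 11 of 14, with differences from 1.10 to 1.92 over all 14. It was lost without scaling between arrays (adjusted p = 0.280) and when either ICR array was left out, the control (0.0680) or the smoked one (0.0524).

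In DBA Nnt averaged 7.47 ± 0.03, against 6.38 ± 0.13 in C57 (SD, n = 2 each), a log2 difference of 1.09 (SE 0.24, 95% interval 0.56 to 1.63) that missed the threshold (limma adjusted p = 0.0591) and passed it in 1 of 14 alternatives. Between ICR and DBA the difference was 0.72 (SE 0.24, adjusted p = 0.201), so these neighbours in the order of levels were not separated by the test, and without scaling between arrays the difference turned to -0.23. Both comparisons with C57 use the same C57 arrays and are not independent. Whether sequence differences under the probes set the signal was not tested, and where on the transcript the probes lie was not used here. For smoke, the Nnt value of the smoked array differed from its control by log2 0.02 in ICR, -0.05 in DBA and -0.19 in C57, and the shared difference was -0.07 (95% interval -0.51 to 0.37, adjusted p = 1).

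**Figure D1:**
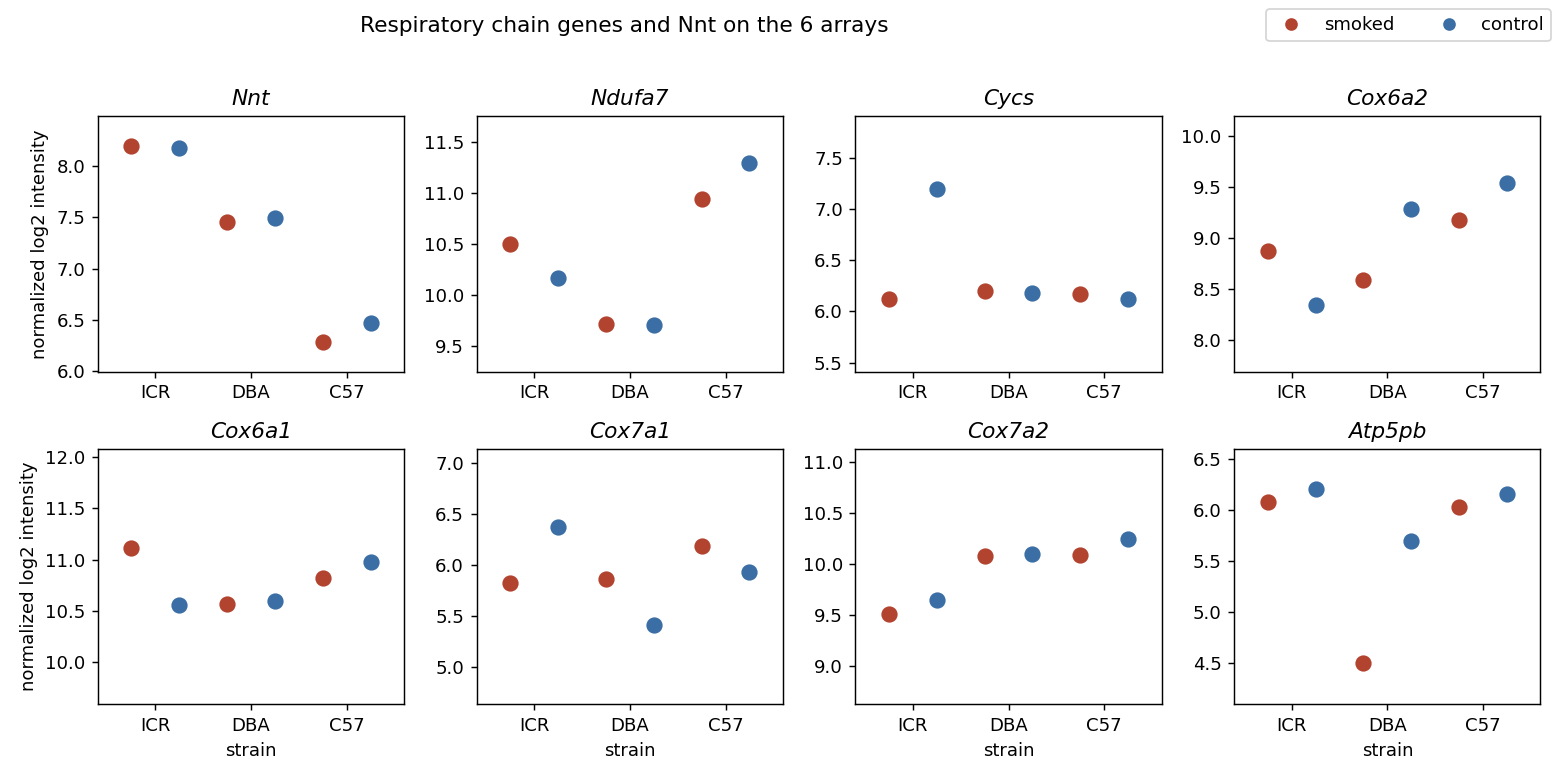
Normalized log2 intensity (vertical axis) of 8 members on each of the 6 arrays, with the strains ICR, DBA and C57 along the horizontal axis and the smoked array left of its control. Each panel spans the same log2 range; Nnt steps down from ICR to DBA to C57 while the smoked and control points of a strain stay close, and Ndufa7 is highest in C57.

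Other genes of mitochondrial NADPH supply and peroxide removal, the neighbours of Nnt in function, gave no call. In that list 10 probe sets were kept. Where 0.0403% to 2.29% of all probe sets were called in the 4 comparisons of strain or smoke, 0 of these 10 were. Their median difference was -0.09 in ICR against C57, where 5 were higher and 5 lower, and -0.18 in DBA against C57, where 4 were higher and 6 lower. The largest differences were those of Idh2, the mitochondrial NADP-linked isocitrate dehydrogenase (-0.73 in ICR against C57, adjusted p = 0.153), and Prdx3, the mitochondrial peroxiredoxin (-0.72 in DBA against C57, adjusted p = 0.207). Gsr, glutathione reductase, was higher on all 3 smoked arrays, by 0.62 in ICR, 0.57 in DBA and 0.24 in C57 (shared difference 0.48, adjusted p = 1). Of all probe sets, 9.86% were higher on all 3 smoked arrays.

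Complex I, the entry of electrons from NADH, had 38 probe sets for 29 genes, and 28 probe sets for 25 genes were kept. Ndufa7 (chromosome 17), an accessory subunit, was the only member called between DBA and C57. Its deposited intensity was 1132 and 926 on the DBA smoked and control arrays, against 2375 and 2905 on the C57 smoked and control arrays, and it read 719.9 and 1060 on the ICR smoked and control arrays. The C57 arrays lay above all 4 others, before and after normalization.

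Ndufa7 averaged 9.71 ± 0.01 in DBA and 11.12 ± 0.25 in C57 (log2, SD, n = 2 each). It fell to 0.378 of the C57 level (log2 -1.40, SE 0.22, 95% interval -1.89 to -0.91, limma adjusted p = 0.0130). That is 1 of 73 members, or 1.37%, against 1.73% of all probe sets called in DBA against C57. In ICR the level was 10.34 ± 0.23 and the difference from C57 was -0.78 (SE 0.22, adjusted p = 0.105). Between ICR and DBA it was 0.62 (SE 0.22, adjusted p = 0.222), and -0.23 without scaling between arrays. Of the 14 alternatives for DBA against C57, some left out an ICR array, which does not enter that difference and left it at -1.40. The DBA call held in 11 of 14 alternatives, with differences from -1.66 to -1.14, and was lost without the filter (adjusted p = 0.0587), without scaling (0.295) and without the C57 control array (0.0948).

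Of the other subunits of complex I none was called. Over the whole complex, Ndufa7 included, in DBA against C57, 24 of 28 probe sets lay below 0 with a median of -0.21, and both DBA arrays were below both C57 arrays for 19 of 28 and above them for 1, where 29.3% of all probe sets were below and 23.2% above. In ICR against C57, 22 lay below 0 with a median of -0.14, with both ICR arrays below for 12 of 28 and above for 1, where 26.5% of all were below and 24.7% above. Ndufv1, the core subunit that binds NADH and FMN, read 447 and 535.9 on the ICR smoked and control arrays, 1488 and 1208 on the DBA smoked and control arrays, and 1398 and 1662 on the C57 smoked and control arrays. Its log2 difference was -0.81 in ICR against C57 (SE 0.24, adjusted p = 0.122) and -0.58 in ICR against DBA (adjusted p = 0.291). Ndufs1, the largest core subunit of the electron-carrying arm, went the other way, at 0.36 in ICR against C57 (SE 0.22, adjusted p = 0.435).

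Ndufab1, the mitochondrial acyl carrier protein that is also a complex I subunit, had the largest within-strain smoke difference of complex I. It read 116.9 on the ICR smoked array and 528.8 on its control, 562.9 on the DBA smoked array and 381.4 on its control, and 437.8 on the C57 smoked array and 399.8 on its control. The normalized differences were -1.16 in ICR, 0.26 in DBA and 0.22 in C57, so only the ICR pair was past 2-fold. As a response of ICR against the other strains this was -1.40 (SE 0.28, adjusted p = 0.302), and the low signal and high 3' to 5' ratios of the ICR smoked array stand beside it; their part in it was not tested. Of the genes with several probe sets, Ndufa3 was low in both DBA and ICR at each of its 2 (-0.51 and -0.55 in DBA against C57, -0.58 and -0.37 in ICR against C57). Ndufb2 gave -0.62 and 0.03 in ICR against C57 and -0.13 and -0.05 in DBA against C57. Ndufv2 gave -0.12 and -0.06 in ICR against C57 and -0.24 and -0.20 in DBA against C57. Each of these 3 genes has at least 1 probe set of a kind that may also detect related sequences. The other probe sets of Ndufb2, Ndufb6, Ndufb7 and Ndufb10, and all probe sets of Ndufa1, Ndufa12, Ndufc2 and Ndufs4 were not kept.

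Of the assembly factors that fall under the rule, Ndufaf4 was 0.32 in DBA against C57 (SE 0.30, adjusted p = 0.782) and 0.12 in ICR against C57, and Ndufaf1 was -0.18 and -0.12. In a wider list of 12 assembly factors kept, 1 was called in each comparison with C57, both lower, where 1.73% of all probe sets were called in DBA and 2.29% in ICR. Lrpprc, which stabilises mitochondrial messages, read 101 and 84.0 on the DBA smoked and control arrays, against 181.4 and 236.7 on the C57 smoked and control arrays (log2 -1.30, SE 0.25, adjusted p = 0.0396). Uqcc1, an assembly factor of complex III, read 42.3 and 104.8 on the ICR smoked and control arrays, against 291.3 and 342.9 on the C57 smoked and control arrays (log2 -1.33, SE 0.23, adjusted p = 0.0241). Against C57, Lrpprc was -0.40 in ICR (adjusted p = 0.437) and Uqcc1 was -0.23 in DBA (adjusted p = 0.801).

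Complex II, succinate dehydrogenase, was measured by 1 probe set for each of its 4 subunits. Sdha, the flavoprotein, was higher on the smoked array in all 3 strains, as 9.86% of all probe sets were, by 0.07 in ICR, 0.39 in DBA and 0.19 in C57 (shared difference 0.22, adjusted p = 1). Sdhd, a membrane anchor, had the lowest difference of the 4 in DBA against C57 (-0.50, adjusted p = 0.408) and in ICR against C57 (-0.46, adjusted p = 0.293).

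Complex III was kept for all 7 of its probe sets. All 7 lay below 0 in DBA against C57, with a median of -0.26. In ICR against C57, 6 of 7 did, with a median of -0.23. Of all probe sets, 54% lay below 0 in DBA (median -0.03) and 51.4% in ICR (median -0.02). None of the 7 was called, where 1.73% of all probe sets were in DBA and 2.29% in ICR. Uqcr11, a small subunit, read 117.5 and 445 on the ICR smoked and control arrays, 753.2 and 571.8 on the DBA smoked and control arrays, and 761.2 and 655.2 on the C57 smoked and control arrays. The ICR smoked array was the lowest of the 6, and both ICR arrays were below the DBA and C57 arrays after normalization (-0.56 against DBA, adjusted p = 0.402, and -0.74 against C57, SE 0.30). Uqcrc2, a core subunit, was higher in ICR than in DBA by 0.69 (SE 0.24, adjusted p = 0.220).

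Cycs, the soluble carrier between complexes III and IV, stood apart on the ICR control array. Its deposited intensity was 28.7 on the ICR smoked array and 129.5 on its control, 98.8 and 78.3 on the DBA smoked and control arrays, and 70.0 and 66.3 on the C57 smoked and control arrays. The normalized values were 6.12 and 7.20 in ICR, 6.20 and 6.18 in DBA, and 6.17 and 6.12 in C57, so 5 arrays lay within 0.1 of each other and the ICR control array lay above them. The smoked minus control difference was -1.08 in ICR (0.474-fold), 0.02 in DBA and 0.05 in C57, and the shared difference was -0.34 (95% interval -0.96 to 0.29, adjusted p = 1). As a response of ICR against the other strains it was -1.11 (SE 0.35, adjusted p = 0.326). Between strains the differences were 0.52 in ICR against C57 (adjusted p = 0.460), 0.47 in ICR against DBA (adjusted p = 0.528) and 0.04 in DBA against C57 (adjusted p = 0.982).

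Complex IV has pairs of subunits known as heart and skeletal muscle forms and as forms of other tissues, and the muscle forms were read beside muscle markers. The muscle form Cox6a2 read 222.5 and 290.7 on the ICR smoked and control arrays, 532.1 and 675.8 on the DBA smoked and control arrays, and 664.2 and 908.8 on the C57 smoked and control arrays. Normalized, it was 8.87 and 8.34 in ICR, 8.59 and 9.28 in DBA, and 9.17 and 9.54 in C57, so that both ICR arrays were below both C57 arrays while DBA overlapped C57. Of all probe sets, 26.5% had both ICR arrays below both C57 arrays. The difference was -0.75 in ICR against C57 (SE 0.30, 95% interval -1.42 to -0.08, adjusted p = 0.230), -0.42 in DBA against C57 (adjusted p = 0.684) and -0.33 in ICR against DBA (adjusted p = 0.619).

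Cox7a1, another muscle form, read 22.8 and 69.5 on the ICR smoked and control arrays, 75.9 and 43.2 on the DBA smoked and control arrays, and 71.0 and 56.7 on the C57 smoked and control arrays. It differed by 0.04 in ICR against C57 (adjusted p = 0.963) and -0.42 in DBA against C57 (adjusted p = 0.724), with overlap of the ICR and C57 arrays. Cox8b, the muscle form of subunit 8, had 2 probe sets that went opposite ways. The first read 49.9 and 79.5 on the ICR smoked and control arrays, 163.2 and 162.6 on the DBA smoked and control arrays, and 130 and 157.6 on the C57 smoked and control arrays. It differed by -0.34 in ICR against C57 (adjusted p = 0.543), with both ICR arrays lowest after normalization, and by 0 in DBA against C57 (limma adjusted p = 0.999). The second read 28.5 and 29.8 in ICR, 37.4 and 39.0 in DBA and 47.1 and 28.4 in C57, smoked array before control. Its differences from C57 were 0.30 in ICR (adjusted p = 0.698) and -0.27 in DBA (limma adjusted p = 0.869).

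None of the counterparts of other tissues was called. Cox6a1 read 1156 and 1425 in ICR, 2024 and 1722 in DBA and 2190 and 2365 in C57, smoked array before control, and differed by -0.06 in ICR against C57 (adjusted p = 0.911) and -0.32 in DBA against C57 (adjusted p = 0.668). Cox7a2 read 352.7 and 746 in ICR, 1451 and 1237 in DBA and 1285 and 1432 in C57, smoked array before control, and was lower on both ICR arrays than on any other array (-0.59 against C57, SE 0.19, adjusted p = 0.156, and -0.51 against DBA, adjusted p = 0.256). Cox8a was not kept and read 3.15 to 11.4 over the 6 arrays. The single probe set of Cox4i1 that was kept read 37.2 and 117.9 in ICR, 117.7 and 52.8 in DBA and 115.8 and 76.3 in C57, smoked array before control. It differed by 0.23 in ICR against C57 (adjusted p = 0.775), -0.50 in DBA against C57 (adjusted p = 0.690) and 0.73 in ICR against DBA (adjusted p = 0.365). Its second probe set read 16.0 and 23.2 in ICR, 41.0 and 55.9 in DBA and 32.7 and 34.1 in C57 and was not kept. Cox4i2 was not analysed here, and no probe set of Cox5a was kept.

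Skeletal muscle markers also differed between strains. All 14 marker probe sets kept were below 0 in ICR against C57, with a median of -2.51. All 14 were also below 0 in DBA against C57, with a median of -1.94. Of all probe sets, 51.4% were below 0 in ICR against C57 and 54% in DBA against C57. Where 2.29% of all probe sets were called in ICR and 1.73% in DBA, 8 of the 14 markers fell in ICR and 7 in DBA. Their summed normalized level over all 24 probe sets was 1025 and 828 on the ICR smoked and control arrays, 1052 and 1622 on the DBA smoked and control arrays, and 5183 and 7271 on the C57 smoked and control arrays. Ckm, Myh4, Myh2 and Tnni2 of that list were not kept. In the cardiac list, 9 of 12 probe sets were below 0 in each comparison with C57, and the only one that fell was Myl1, a light chain of fast skeletal muscle (-2.86 in ICR and -2.59 in DBA). Of the brown fat list only Cidea was kept, and Ucp1 was not. The part of muscle tissue in the values of Cox6a2, or of the members as a whole, was not tested.

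**Figure D2:**
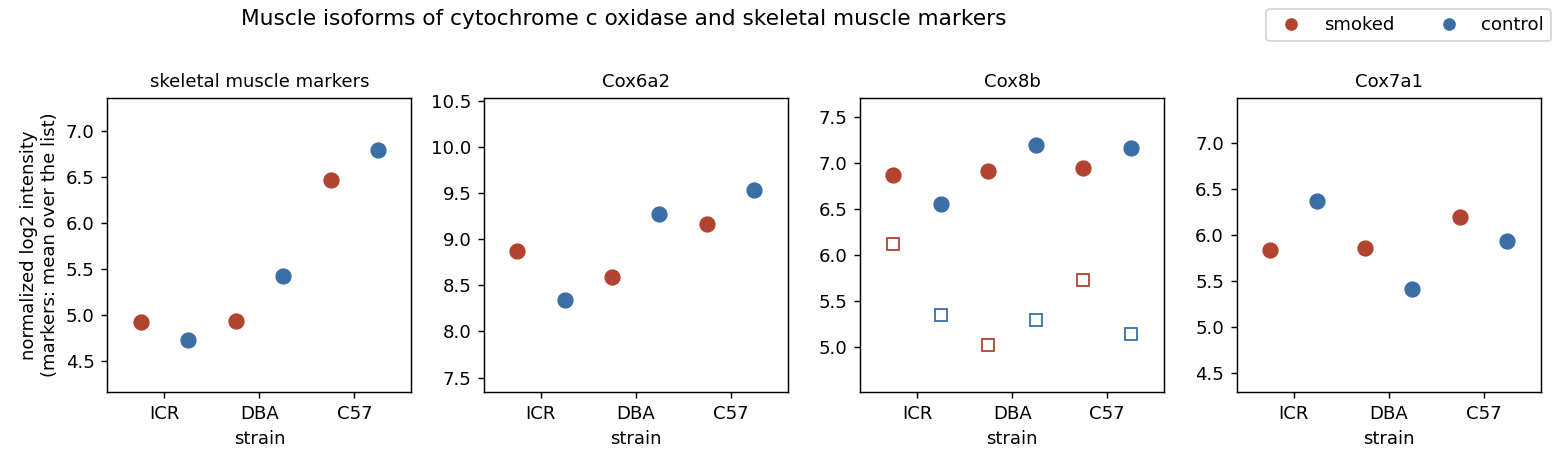
Normalized log2 intensity of the skeletal muscle markers (mean over the list) and of the muscle forms Cox6a2, Cox8b and Cox7a1, by strain (ICR, DBA, C57), with the smoked array left of its control. Open squares are the second probe set of Cox8b. The marker level is highest on both C57 arrays. Cox6a2 and the first Cox8b probe set (circles) have both ICR arrays below both C57 arrays, as 26.5% of all probe sets do, and Cox7a1 does not. In DBA, where the marker level is also below C57, Cox6a2 and the first Cox8b probe set overlap C57.

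Other complex IV subunits were the members at the ends of the smoke comparison. Cox6b1 was 0.37 higher on the smoked arrays (SE 0.23, 95% interval -0.16 to 0.90), with 0.50 in ICR, 0.32 in DBA and 0.30 in C57. The testis form Cox6b2 had 3 probe sets that disagreed: 1 was -0.51 (SE 0.28) with -1.09 in ICR, -0.34 in DBA and -0.10 in C57, and the others were 0.07 and 0.02. The probe set at -0.51 read 12.5 on the ICR smoked array and 60.9 on its control. Over the 7 genes of the set with at least 2 probe sets kept, the probe sets had the same sign in 2 genes for smoke, 3 for DBA against C57, 3 for ICR against C57 and 2 for ICR against DBA.

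Complex V, ATP synthase, had 22 probe sets for 14 genes. It kept 14 probe sets for 11 genes, with none for Atp5g1, Atp5j2 or Atp5k. Its lowest members in DBA against C57 were Atp5md and Atp5mpl, small membrane subunits, and Atp5pb, subunit b of the outer stalk. Atp5md read 934.7 and 1208 on the DBA smoked and control arrays, against 2000 and 1996 on the C57 smoked and control arrays (log2 -1.0, SE 0.25, adjusted p = 0.108). Atp5mpl read 673 and 588 on the DBA smoked and control arrays, against 1033 and 993.8 on the C57 smoked and control arrays (-0.75, SE 0.21, adjusted p = 0.144). In both genes no DBA array overlapped a C57 array, and neither passed the threshold.

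Atp5pb was low mainly on 1 array. It read 22.4 on the DBA smoked array and 54.5 on its control, 27.7 and 61.7 on the ICR smoked and control arrays, and 62.0 and 68.4 on the C57 smoked and control arrays. Normalized, the smoked minus control difference was -1.20 in DBA (0.435-fold), -0.12 in ICR and -0.12 in C57, and the response of DBA against the others was -1.08 (SE 0.64, adjusted p = 1). The strain differences were 1.04 in ICR against DBA (SE 0.35, adjusted p = 0.213) and -0.99 in DBA against C57 (SE 0.35, adjusted p = 0.297). Atp5e, the epsilon subunit of the central stalk, was the lowest member in ICR against C57: 124.3 and 298 on the ICR smoked and control arrays, 565.7 and 563.8 in DBA, and 700 and 645.3 on the C57 smoked and control arrays (-0.91 against C57, SE 0.23, adjusted p = 0.0837; -0.59 against DBA, adjusted p = 0.263). The 2 kept probe sets of Atp5c1 and the 3 of Atp5d lay between -0.27 and 0.21 in the comparisons with C57.

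With all complexes pooled, most members lay below 0 in both comparisons with C57. In DBA against C57, 58 of 73 were below 0, against 4023 of all 7453 probe sets, and the median was -0.22, where the median of all probe sets was -0.03. Both DBA arrays were below both C57 arrays for 40 members, or 54.8%, where 29.3% of all probe sets were, and above them for 6, or 8.22%, where 23.2% were. In ICR against C57, 52 of 73 were below 0, against 3829 of all 7453, and the median was -0.12, against -0.02 for all. With 1 array left out the ICR median ranged from -0.22 without the C57 control to -0.09 without the C57 smoked array, and it was -0.21 without the ICR control. Both ICR arrays were below both C57 arrays for 28, or 38.4%, against 26.5% of all, and above them for 5, or 6.85%, against 24.7% of all. Of 16 complex IV probe sets, 6 were below and 2 above in DBA, and 4 below and 1 above in ICR. Of 4 in complex II, 1 was below in each comparison. The median difference of all members on the smoked arrays was -0.26 in DBA against C57 and -0.25 in ICR against C57, and on the control arrays -0.16 and -0.09. These counts describe the list, and limma called 1 member in each comparison. Apart from Nnt, the highest members in DBA against C57 were a probe set of Cox6b2 (0.46, adjusted p = 0.721) and Ndufaf4, and in ICR against C57 they were Cycs and Cox7b, a small complex IV subunit (0.38, adjusted p = 0.464). The beta-actin ratio of 3' to 5' signal was 4.75 and 1.63 on the ICR smoked and control arrays, 1.66 and 1.46 in DBA, and 2.51 and 2.75 in C57. Its part, like that of the muscle markers above, was not tested.

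Between ICR and DBA the median of the members was 0.08, against 0.01 for all probe sets. Above 0 were 49 of 73 members, against 3815 of all 7453 probe sets. Both ICR arrays were above both DBA arrays for 19 members, or 26.0%, against 25% of all, and below them for 15, or 20.5%, against 22.9%. limma called 0 members, where 1.17% of all probe sets were called; at an unadjusted p below 0.05 there were 6 members higher and 3 lower, against 565 and 595 of the 7453.

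**Figure D3:**
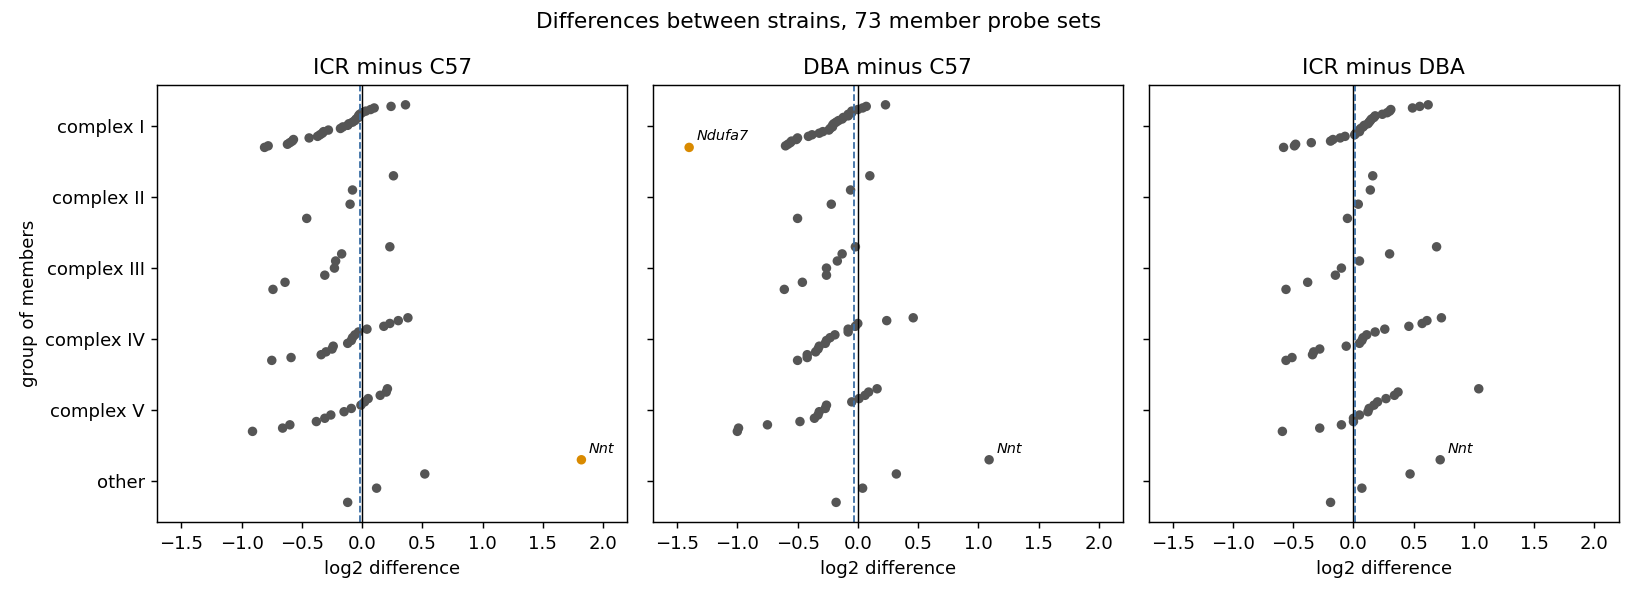
Log2 differences (horizontal axis) of the 73 member probe sets in ICR minus C57, DBA minus C57 and ICR minus DBA, by complex down the page; the dashed line is the median of all 7453 probe sets. The row named other holds Nnt, Cycs, Ndufaf1 and Ndufaf4. Orange points are the members called, Nnt in ICR minus C57 and Ndufa7 in DBA minus C57; most other members lie left of the line at 0 in the comparisons with C57.

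Smoke moved no member past the threshold. limma called 0 of 73 members for smoked against control, where 0.0403% of all probe sets were called, and 0 had an unadjusted p below 0.05, against 71 higher and 51 lower of the 7453. The median difference was 0.00, against 0.01 for all probe sets, and the fitted differences ran from -0.51 to 0.37. The 95% interval lay within 2-fold in either direction for 70 of 73 members, and its median reach to either side of the difference was 0.44. The lowest were Cox6b2, Atp5pb (-0.48) and Cycs (-0.34), and the highest Cox6b1, the second Cox8b probe set (0.36) and Cox6c, a structural complex IV subunit (0.24, SE 0.15). The smoked array was higher in all 3 strains for 7 members (Atp5c1, Cox6b1, Cox6c, Ndufa10, Ndufa13, Ndufb2 and Sdha), or 9.59%, where 9.86% of all probe sets were. It was lower in all 3 for 5 (Atp5pb, Cox6b2, Cox7a2, Ndufa6 and Ndufs3), or 6.85%, where 7.77% were.

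Within a strain, with no test, at least 2-fold differences between the smoked and control array were few. In ICR there were 3, all lower (Ndufab1, Cox6b2 and Cycs), where 6.48% of all probe sets were at least 2-fold different. In DBA there was 1, Atp5pb, where 3.05% were, and in C57 there were 0, where 1.21% were. Above 0 in ICR the largest were the second Cox8b probe set at 0.77 and Ndufv1 at 0.65, and below 0 the 3 past 2-fold were followed by Uqcr11 at -0.91. In DBA the largest above 0 were Cox4i1 at 0.78 and Ndufb3 at 0.51, and Atp5pb was followed below 0 by Cox6a2 at -0.69 and Atp5md at -0.62. In C57 the largest in each direction were a probe set of Atp5d at 0.66 and Ndufc1 at 0.63, against a probe set of Cox6b2 at -0.59 and Ndufa5 at -0.51. The member median was 0.02 in ICR, -0.01 in DBA and 0.05 in C57.

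**Figure D4:**
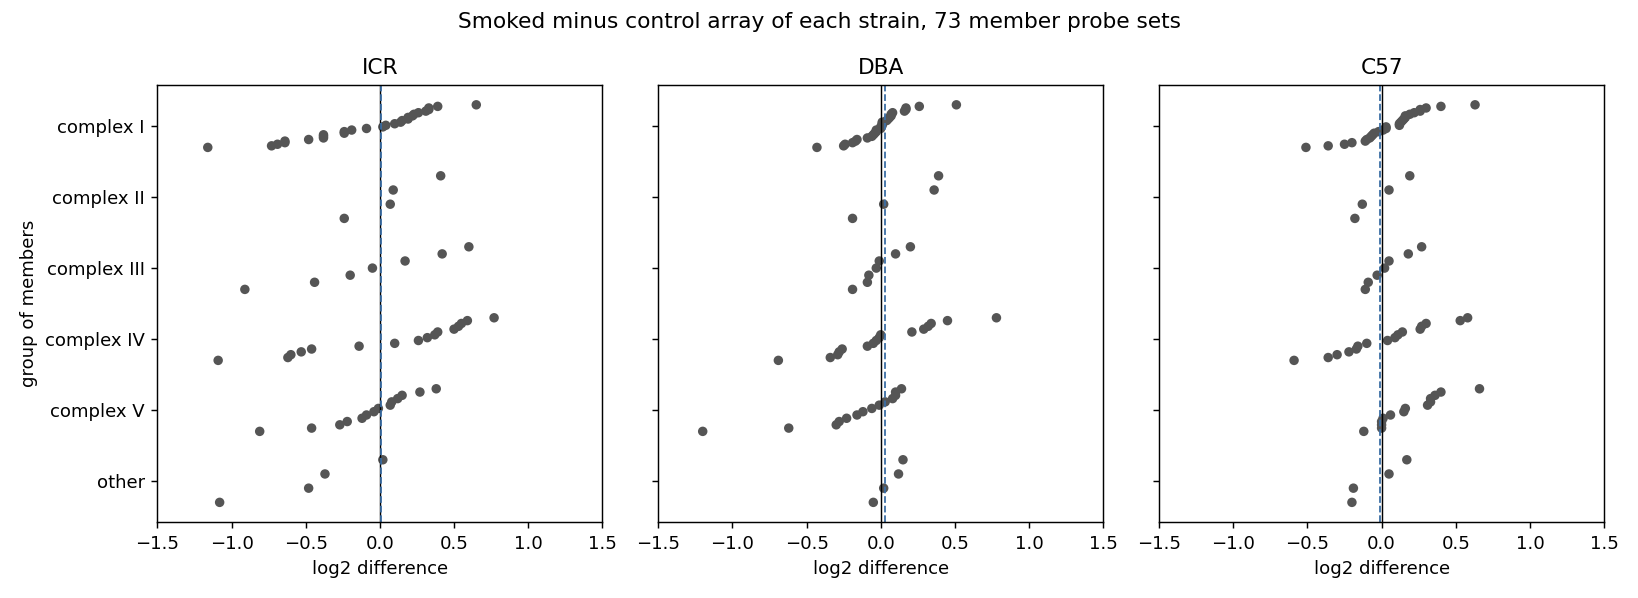
Smoked minus control log2 difference (horizontal axis) of the 73 member probe sets in the ICR, DBA and C57 pair, by complex down the page; the dashed line is the median of all 7453 probe sets. Points lie on both sides of 0 in each complex and strain, with 3 members below -1 in ICR and 1 in DBA; height within a row only separates the points.

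The response of 1 strain against the others also gave 0 calls among members: 0.134% of all probe sets were called for C57, 0.711% for DBA and 0% for ICR. For ICR, 3 members were higher and 8 lower at an unadjusted p below 0.05, against 482 and 585 of all 7453 probe sets. Besides Ndufab1 and Cycs the largest were Cox4i1 (-1.25, SE 0.35, adjusted p = 0.310), Uqcr11 (-1.10, SE 0.28, adjusted p = 0.302), Cox6a2 (1.06, SE 0.29, adjusted p = 0.307) and a probe set of Atp5c1 (-1.05). A probe set of Cox6b2 (0.78) and Ndufv1 (0.72) followed Cox6a2 among those above 0. For C57 the largest were a probe set of Cox6b2 (-0.99), Ndufa5 (-0.56) and Ndufv1 (-0.56), against Ndufc1 (0.87) and probe sets of Atp5c1 (0.76) and Atp5d (0.69). For DBA they were, after Atp5pb, the second Cox8b probe set (-0.94) and Atp5md (-0.81), against Cox4i1 (0.81), Ndufab1 (0.73) and Ndufb3 (0.69), each at an adjusted p of 1.

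**Figure D5:**
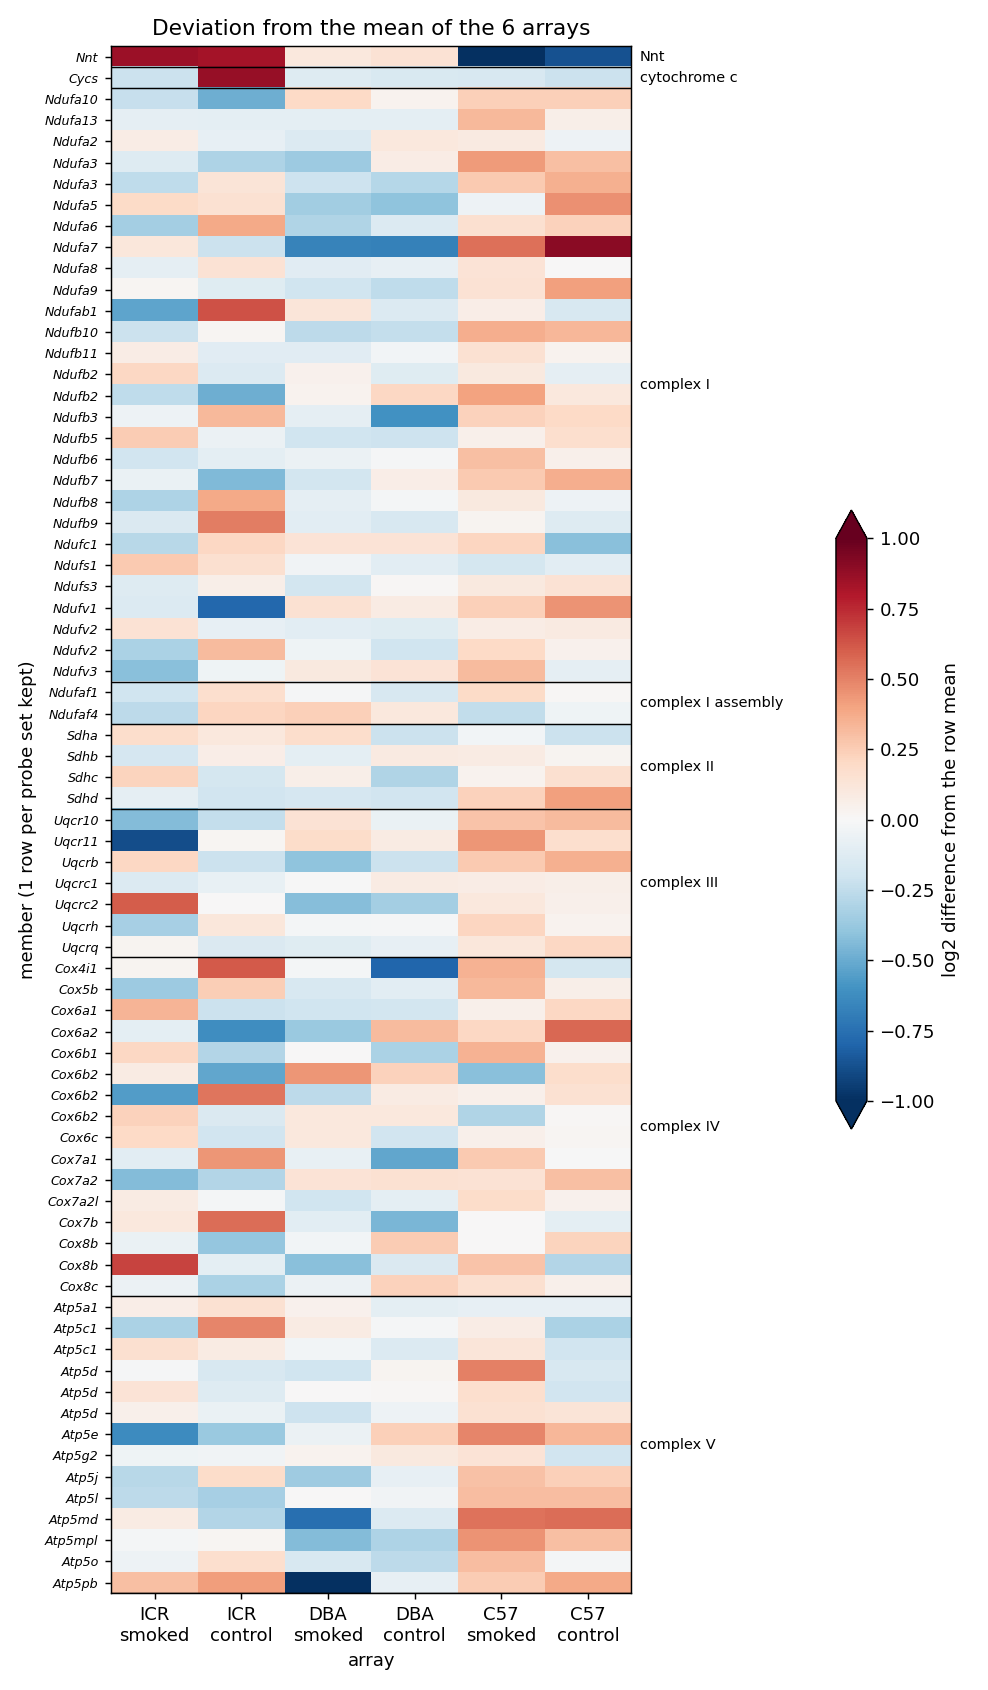
Deviation of each of the 73 member probe sets (rows, grouped by complex) from its mean over the 6 arrays (columns: ICR, DBA and C57, smoked left of control), in normalized log2 units; colours stop at 1 in either direction. Nnt is high on both ICR arrays and low on both C57 arrays, and most rows of complexes I, III and V are highest on a C57 array.

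The lists of genes around the respiratory chain gave no calls beyond the assembly factors above. For smoke the medians were 0.01 for the citric acid cycle (15 probe sets kept), 0.01 for other electron carriers and entry points (14), 0.10 for carriers and porins (9) and -0.13 for regulators of mitochondrial biogenesis (8), and no member of these was called. In DBA against C57 the medians were -0.11, 0.11, -0.02 and -0.35 in that order, and in ICR against C57 -0.12, 0.08, 0.10 and -0.10, with 0 calls. Of all probe sets, 0.0403% were called for smoke, 1.73% in DBA against C57 and 2.29% in ICR against C57. Among the regulators, Gabpa had a difference of 1.09 in ICR against C57 (SE 0.35, adjusted p = 0.143) and Esrra, an orphan nuclear receptor, had -0.71 and -0.26 at its 2 probe sets. In the citric acid cycle Pdha1, a pyruvate dehydrogenase subunit, had -0.59 in DBA against C57 and Suclg2, a succinyl-CoA ligase subunit, -0.64 in ICR against C57. Cyc1, the cytochrome c1 of complex III that the naming rule left out, had 2 probe sets that disagreed, at -0.92 (SE 0.25, adjusted p = 0.132) and 0.17 in ICR against DBA. Etfb, a flavoprotein subunit that brings in electrons from fatty acid oxidation, likewise gave -1.08 (adjusted p = 0.202) and 0.05 in ICR against C57. Vdac2, an outer membrane porin, gave 0.63 in ICR against C57 (adjusted p = 0.256).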

How the data were processed

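The authors deposited 1 linear intensity per probe set, for 12488 probe sets on each of 6 arrays; their summary and scaling steps were not stated in what was available here. Per the labels' protocols, RNA was extracted with Trizol and biotin-labelled through an oligo(dT) primer. The number of arrays limits the precision.

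From the deposited values, log2(value + 8.05) was taken, where 8.05 is their 20th percentile, followed by quantile normalization. After removal of 66 control probe sets, those whose mean passed the 40th percentile were used (7453). limma 3.58.1 in R 4.3.3 (lmFit, eBayes with trend) fitted exposure and strain together, leaving 2 residual degrees of freedom, and gave the strain contrasts too; the response of 1 strain was an extra term, with 1 residual degree of freedom. Of all probe sets, 10855 had 1 symbol, 396 several and 1237 none. Gene symbols came from the platform annotation, and all 100 members matched RefSeq by gene identifier. Members with the suffix f_at, s_at, r_at, i_at or g_at (36, with 25 kept) may detect related sequences. The fits were run on simulated data with independent noise and no differences in array quality. Such data cannot show how the fits behave with a single poor array. Plots used matplotlib 3.10.9 in Python 3.11.15.

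Named were Nnt, Cycs, the complex IV isoform pairs, every member called, and the 3 largest and 3 smallest differences of each comparison. Members at least 2-fold different in a pair were named too, with the 2 largest each way. Of the lists, examples with large differences were named, not the largest of every comparison. Ndufs1, Ndufaf1, Sdha, Sdhd, Uqcrc2 and Atp5mpl were added after their values were seen, as were Ndufa3, Ndufb2 and Ndufv2 for their several probe sets. The members and lists were chosen with earlier results of these data known. Alternatives were other pseudocounts, filters, scalings and variance priors, no strain block, a 1.5-fold threshold, and arrays or pairs left out.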

Additional observations from a re-analysis of the deposited data

How the results depend on the processing

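No paired analysis by replicate number was possible because every group has only number 1; strain served as the block. Of the recomputed counts and medians, 112 stayed within the limits set and 30 moved; of the recomputed values of single genes, 87 kept direction and call, 6 lost the call, 3 gained it and 2 reversed. Without the filter, 0 members were called in DBA against C57, where 0.531% of all probe sets were. Ndufa7 there had an adjusted p of 0.0587 (log2 -1.40), and the median in ICR against DBA was 0.11. With the mean above the 60th percentile, 2 were called in DBA against C57, Ndufa7 and Nnt (1.09, adjusted p = 0.0445), or 3.33% of members against 2.52% of all. Without scaling between arrays, the median of all probe sets moved to -0.21 for smoke, 0.14 for DBA against C57, -0.73 for ICR against C57 and -0.89 for ICR against DBA, and the member medians to -0.21, -0.10, -0.91 and -0.81. Then 0 members were called in either comparison with C57, where 1.14% of all probe sets were called in DBA and 1.95% in ICR. Ndufa7 was -1.35 in DBA (adjusted p = 0.295) and Nnt 1.10 in ICR (adjusted p = 0.280). Nnt and Ndufa7 reversed in ICR against DBA, at -0.23 each. In that setting 22 members (30.1%) were called in the ICR response, all lower, where 24% of all probe sets were called and their median was -0.99. With scaling to a common median, the member medians were -0.03 for smoke, -0.41 for DBA and -0.31 for ICR against C57, and 2 members, Nnt and Atp5e, were called in ICR against C57 (2.74%, against 3.02% of all). With single arrays left out, calls ranged from 0 to 2 in DBA against C57 (2.74% without the DBA control, against 2.42% of all), where Ndufa7 was -1.14 without the C57 control array, and from 0 to 4 in ICR against C57. There the 4 called without either DBA array were Nnt, Atp5e, Ndufv1 and Ndufa7 (-0.78, adjusted p = 0.0433 and 0.0446), or 5.48%, against 6.88% and 6.94% of all probe sets, and Nnt was 1.89 without the ICR control and 1.75 without the ICR smoked array. Medians then ranged from -0.30 to -0.13 in DBA against C57, from -0.22 to -0.09 in ICR against C57, and from 0.03 to 0.09 in ICR against DBA. At 1.5-fold, 15 members (20.5%) differed in the ICR pair, 4 (5.48%) in the DBA pair and 3 (4.11%) in the C57 pair, against 25.2%, 9.73% and 7.53% of all probe sets in that order. With the ICR control array alone, a setting chosen after the data were seen, the array was above both C57 arrays for 19 members (26%, against 40.1% of all) and below both for 41 (56.2%, against 44.5%), and above both DBA arrays for 36 (49.3%, against 40.6%) and below both for 24 (32.9%, against 41.1%). The cause of these shifts was not tested.

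Each group is 1 array, so a smoke difference within a strain cannot be told apart from a difference between samples, and a strain difference rests on 2 arrays that also differed in muscle markers and 3' to 5' ratios. With the summary and scaling steps unknown, intensities are relative.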

Other observations

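Markers of other tissues and cells differed between single arrays. Neutrophil markers summed to a normalized level of 994 and 15337 on the DBA smoked and control arrays, against 2492 and 3422 in ICR and 993 and 1060 in C57, smoked before control. Liver markers summed to 3532 on the DBA smoked array and 429 on its control, 250 and 258 in ICR, and 66 and 311 in C57. Alveolar macrophage markers summed to 3286 and 5321 in DBA, 5777 and 6156 in ICR, and 4538 and 2971 in C57. Adipocyte markers summed to 443 and 413 in ICR, 300 and 357 in DBA, and 361 and 357 in C57.

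In the lung epithelium list 2 of 5 genes fell in ICR against C57, where 2.29% of all probe sets were called: Foxj1, a transcription factor of ciliated cells (-1.28, SE 0.27, adjusted p = 0.0494), and Sftpb, a surfactant protein (-1.0, SE 0.19, adjusted p = 0.0348). Sftpb read 1113 and 2603 on the ICR smoked and control arrays, against 6105 and 5192 on the C57 smoked and control arrays.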
